A study of Mus musculus with 16 samples.

Results

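The heat-shock proteins, the DnaJ proteins and 2 cold-induced RNA-binding proteins were followed array by array in lungs of newborn mice. Members were array features whose platform symbol belonged to the Hspa, Hspb, Hsp90, Dnaja, Dnajb or Dnajc families, or was Hspd1, Hspe1, Hsph1, Hsf1, Bag3, Chordc1, Cirbp or Rbm3. This took 124 of the 62976 features, for 75 genes, of which 74 passed a filter on dim features and were among the 20174 genes tested. Dnajb7 lay below the filter. Lung homogenates of pups at postnatal day 3 were hybridised to single-colour Agilent arrays, 1 array per sample, with 4 arrays in each of 4 groups. The groups were Fgf10+/- pups in 85% oxygen (hyperoxia) from day 0 to day 3, Fgf10+/- pups in normoxia, wild-type pups in the same hyperoxia and wild-type pups in normoxia. Fgf10+/- pups carry 1 mutant allele of Fgf10, a fibroblast growth factor of lung mesenchyme, and nothing used here gives the allele, strain or sex. The deposited values are log2 intensities, so a difference of 1 is a doubling of signal.

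Heat-shock proteins are chaperones that bind unfolded proteins. HSP70 proteins work with J proteins (the Dnaj genes), which deliver clients and start ATP hydrolysis, with nucleotide exchange factors of the HSP110 type, and with HSP90. When unfolded protein accumulates, the transcription factor HSF1 binds heat-shock elements, repeats of nGAAn blocks in alternating orientation, and switches on the inducible members. The endoplasmic reticulum (ER) has its own chaperones, induced through ER stress elements, and mitochondria have theirs. Cirbp and Rbm3 are RNA-binding proteins whose transcripts rise under mild cold and fall with heat, so they usually run opposite to the heat-shock genes. In the newborn lung high oxygen is an oxidative injury that slows the formation of alveoli.

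Promoter sequence is shown for selected members with a match to an element, among those that moved together from array to array. Chordc1, Dnajb1, Dnajb9, Hsp90aa1, Hsp90ab1 and Hspa4l also moved with Hsph1 but had no match or no promoter entry. The members with a match that are not shown are Dnaja4, Dnajb6, Dnajb4, Dnajc27, Hspb6 and Dnajc10. Their Pearson r with Hsph1, on deviations from group means, was 0.71, 0.43, 0.42, 0.21, 0.04 and -0.62 in that order. RefSeq promoter entries (build GRCm38.p6) matched 59 of the 75 members, and the 250 bases before each start were searched on both strands. The short heat-shock element GAANNTTC or TTCNNGAA was in 12 of the 59 members (20.3%), against 14.5% of the 27025 genes searched. The longer GAANNTTCNNGAA, which contains both short forms, was in 3 members (5.08%), namely Hspd1, Hspe1 and Dnajb6, against 0.514% of all genes. The ER stress element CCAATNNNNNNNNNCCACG was in 3 members (5.08%), namely Hspa5, Hsp90b1 and Dnajc3, against 0.13% of all genes. A match describes the letters and does not show binding. Hspe1 and Hspd1, the mitochondrial HSP10 and HSP60, are read in opposite directions from chr1:55088028-55088097, so their lines show the same bases on the plus and on the minus strand, with overlapping heat-shock elements in capitals. The other lines show Hsph1 (chr5:149636342-149636411, minus strand), Hspb1 (chr5:135887769-135887848, plus), Hspa1a (chr17:34972227-34972296, minus) and Dnaja1 (chr4:40722318-40722377, plus), with the short element in capitals. For the ER chaperones the ER stress element is in capitals, at chr2:34771980-34772059 (plus) for Hspa5, chr10:86705520-86705669 (minus) for Hsp90b1 and chr14:118937807-118937866 (plus) for Dnajc3. In Hsp90b1 the second copy runs on the opposite strand.
Hspe1: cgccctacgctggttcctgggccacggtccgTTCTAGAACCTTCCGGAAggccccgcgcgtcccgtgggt
Hspd1: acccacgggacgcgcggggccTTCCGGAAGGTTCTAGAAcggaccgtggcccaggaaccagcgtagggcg
Hsph1: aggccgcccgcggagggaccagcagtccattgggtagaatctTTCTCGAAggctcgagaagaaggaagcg
Hspb1: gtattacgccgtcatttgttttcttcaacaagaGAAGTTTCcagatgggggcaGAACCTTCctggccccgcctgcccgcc
Hspa1a: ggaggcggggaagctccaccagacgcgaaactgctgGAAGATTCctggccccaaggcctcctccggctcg
Dnaja1: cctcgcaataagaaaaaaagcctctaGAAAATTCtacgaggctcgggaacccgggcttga
Hspa5: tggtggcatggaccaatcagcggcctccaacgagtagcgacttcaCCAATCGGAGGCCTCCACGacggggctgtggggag
Hsp90b1: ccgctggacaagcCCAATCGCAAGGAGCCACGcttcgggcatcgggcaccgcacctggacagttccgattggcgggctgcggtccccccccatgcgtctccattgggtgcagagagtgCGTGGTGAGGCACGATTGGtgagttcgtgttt
Dnajc3: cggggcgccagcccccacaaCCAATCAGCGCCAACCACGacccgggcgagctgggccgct

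The arrays of a group correlated with each other at 0.974 to 0.983 over the 20174 tested genes. Lung epithelial markers were near the top of the scale, with a list mean of 13.85 to 14.33 in every array. Fgf10 itself averaged 7.64 in Fgf10+/- hyperoxia and 7.85 in wild-type hyperoxia, and 8.28 in Fgf10+/- normoxia and 7.80 in wild-type normoxia. It was not lower at an adjusted p under 0.05 in either comparison (limma adjusted p = 0.835 and 0.334), so the arrays do not check the genotype, which is given as labelled. Wild-type normoxia replicate 4 stood apart: its 11 skeletal muscle markers averaged 8.17, against 4.72 to 5.48 in the other 15 arrays, and its 4 brown fat markers 7.58, against 4.90 to 5.78. Counts of called members and the normoxia differences of several described members are also given without this array.

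In normoxia the stress-inducible chaperones fell into 2 sets of arrays that matched genotype only in part. Fgf10+/- replicates 2, 3 and 4 and wild-type replicate 4 were high, and Fgf10+/- replicate 1 and wild-type replicates 1, 2 and 3 were low. The list of 12 stress-inducible members tested also holds Hspa8 and Hsp90ab1, which are mainly constitutive, and the mitochondrial Hspd1 and Hspe1. Of these 12, Fgf10+/- normoxia replicates 1 to 4 had 2, 12, 12 and 12 among the upper 4 of the 8 normoxia arrays. A tie at the limit of the upper 4 counted for each tied array, and Hspa8 entered by its brightest feature. Wild-type normoxia replicates 1 to 4 had 1, 0, 0 and 10. Fgf10+/- replicate 3 was the highest of the 8 arrays for 11 of the 12. Arrays with high inducible chaperones had low Cirbp.

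**Figure D1:**
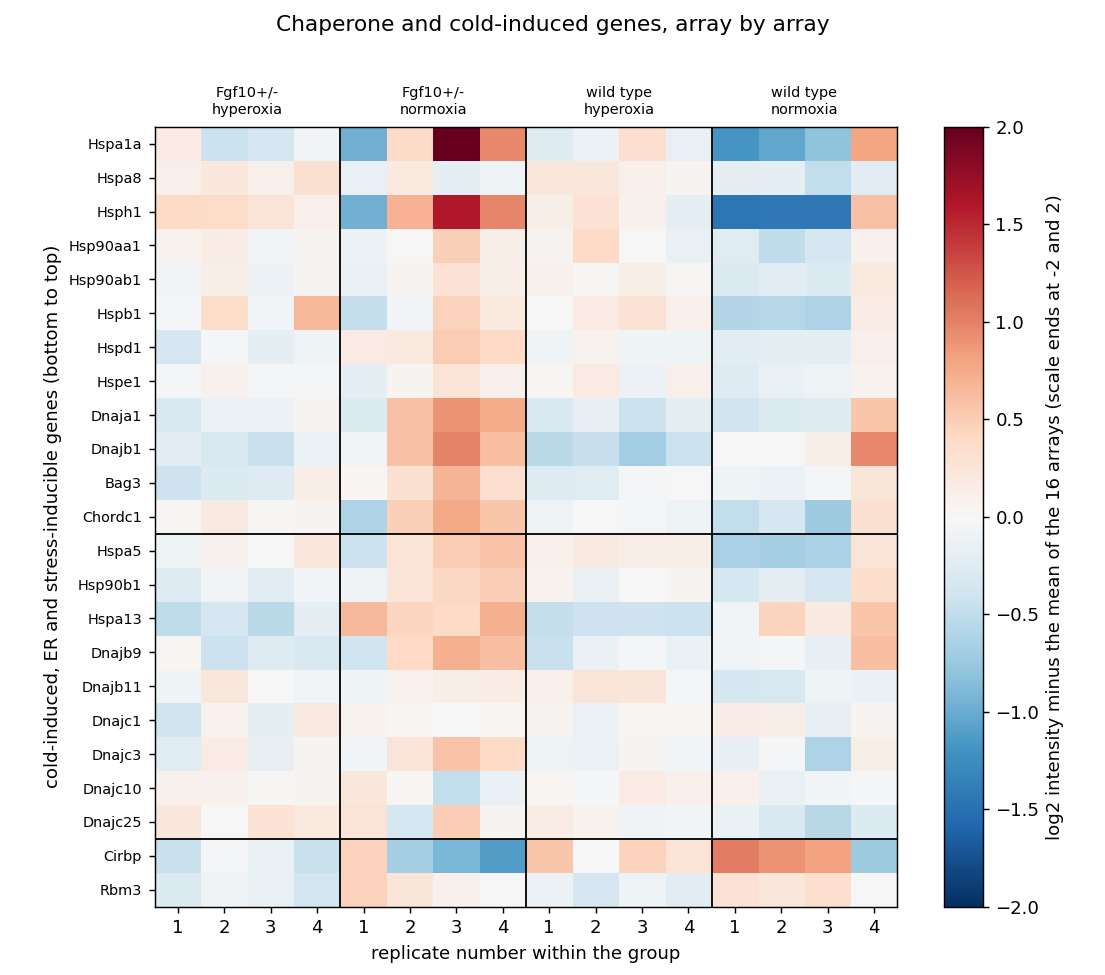
Log2 intensity of the stress-inducible, ER and cold-induced genes in each of the 16 arrays, as the difference from the gene's mean over all arrays (colour, scale ending at -2 and 2), with replicates 1 to 4 of each group side by side. In normoxia, Fgf10+/- replicates 2 to 4 and wild-type replicate 4 share the high inducible genes and the low Cirbp, and for Hsph1 the 8 hyperoxia arrays lie between the high and the low ones.

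Hsph1, the HSP110 protein that exchanges nucleotide on HSP70, had the widest range. Its log2 intensities were 8.63, 10.29, 11.19 and 10.57 in Fgf10+/- normoxia, against 8.14, 8.15, 8.17 and 10.17 in wild-type normoxia. Within each genotype 1 array sat with the other genotype's arrays, so the groups overlapped. The mean difference was 1.51 ± 0.50 (SE), or 2.85-fold, with a 95% interval of 0.45 to 2.57, and it did not pass (limma adjusted p = 0.187). Without wild-type replicate 4 the difference was 2.02 (limma adjusted p = 0.0347), and without Fgf10+/- replicate 1 it was 2.03 (limma adjusted p = 0.0397).

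Hspa1a, the inducible HSP70, showed the same arrays apart. It was at 5.02, 6.36, 8.67 and 6.94 in Fgf10+/- normoxia, against 4.80, 4.95, 5.18 and 6.76 in wild-type normoxia, a difference of 1.33 ± 0.59 (limma adjusted p = 0.36), and 1.77 without wild-type replicate 4 (limma adjusted p = 0.155). Dnajb1, the HSP40 partner of HSP70, was at 11.38, 12.01, 12.43 and 12.03 in Fgf10+/- normoxia, against 11.43, 11.45, 11.56 and 12.39 in wild-type normoxia. Wild-type replicate 4 lay between the highest and the next Fgf10+/- array, and the difference of means was 0.25 ± 0.22 (limma adjusted p = 0.699). It was 0.48 without wild-type replicate 4, 0.45 without Fgf10+/- replicate 1, and between 0.10 and 0.48 over all arrays left out in turn, without passing. Dnaja1, another cytosolic J protein, was at 12.68, 13.54, 13.86 and 13.70 in Fgf10+/- normoxia, against 12.55, 12.69, 12.69 and 13.51 in wild-type normoxia. Chordc1, an HSP90-binding protein, was at 8.66, 9.75, 10.03 and 9.83 in Fgf10+/- normoxia, against 8.79, 8.94, 8.56 and 9.58 in wild-type normoxia. In both, Fgf10+/- replicate 1 lay within the range of wild-type replicates 1 to 3.

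Other inducible members moved less. Hspb1, the small heat-shock protein HSP25, spanned 12.39 to 13.32 in Fgf10+/- normoxia and 12.23 to 13.01 in wild-type normoxia. Bag3, a cochaperone that links HSP70 to autophagy, spanned 10.45 to 11.09 and 10.30 to 10.66 in the same order of groups. Hsp90aa1, the inducible HSP90, spanned 11.80 to 12.39 in Fgf10+/- normoxia and 11.39 to 11.99 in wild-type normoxia. Hsp90ab1, its constitutive paralog, spanned 13.98 to 14.40 in Fgf10+/- normoxia and 13.81 to 14.31 in wild-type normoxia, a difference of 0.23 that was 0.34 without wild-type replicate 4, with no call. The SD within normoxia exceeded that within hyperoxia for all 12 inducible members in each genotype, while over all 20174 tested genes this held for 10318 genes in Fgf10+/- pups and 11164 in wild-type pups. The median SD of the 12 was 0.14 in hyperoxia and 0.33 in normoxia in Fgf10+/- pups, and 0.12 in hyperoxia and 0.31 in normoxia in wild-type pups. Wild-type normoxia replicate 4 lay far from the other arrays of its group for several of the 12. Hsph1 was at 10.17 in it, against 8.14 to 8.17 in the others, and Dnajb1 at 12.39, against 11.43 to 11.56. The SDs were not computed without this array, and the 12 are not independent of each other.

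**Figure D2:**
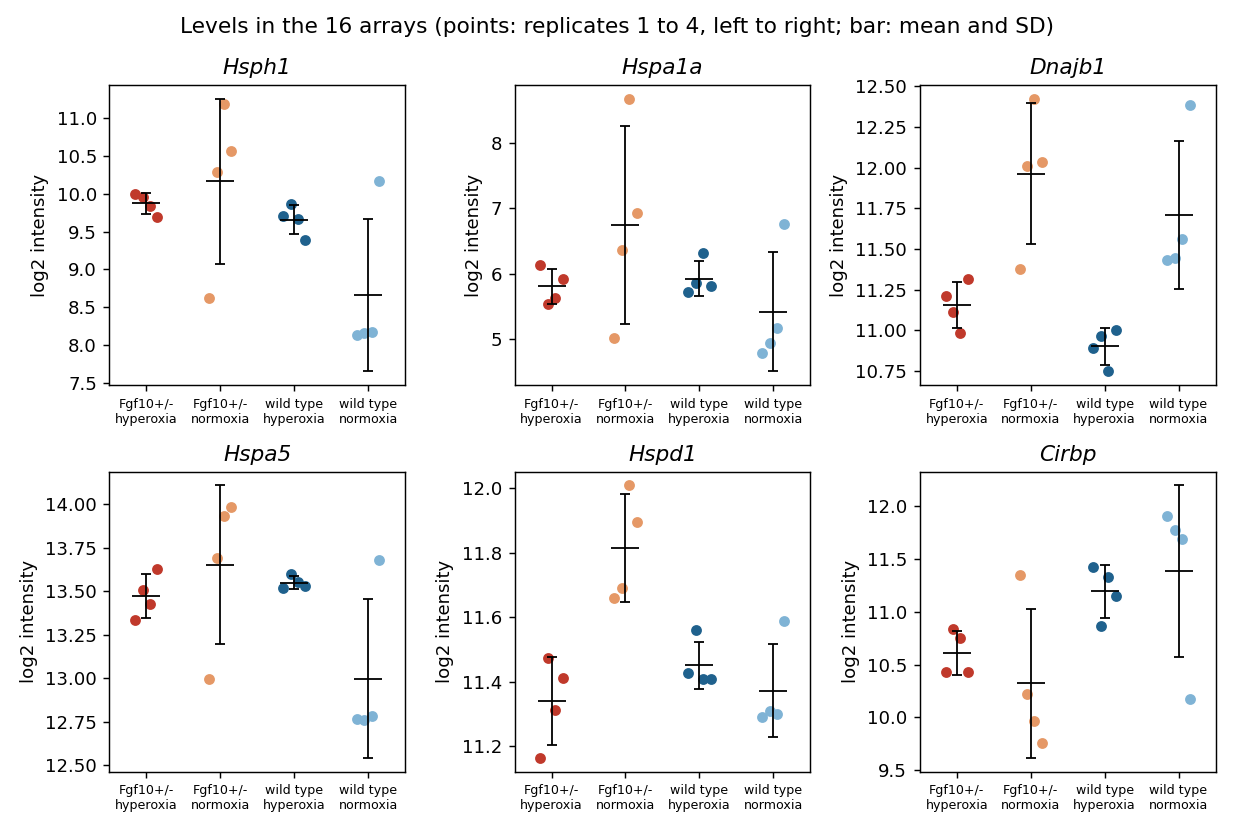
Log2 intensity of single members in the 16 arrays (points, replicates 1 to 4 from left to right) with the mean and SD of each group of 4. Hsph1 spans 8.14 to 11.19 in normoxia and 9.39 to 9.99 in hyperoxia.

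Mitochondrial and ER chaperones shared part of this pattern. Hspd1 (HSP60, the mitochondrial chaperonin) was at 11.66, 11.69, 12.01 and 11.90 in Fgf10+/- normoxia, against 11.29, 11.31, 11.30 and 11.59 in wild-type normoxia. All 4 Fgf10+/- arrays lay above all 4 wild-type arrays, by the difference of 0.44 ± 0.11 (limma adjusted p = 0.0816). An exact two-sided permutation of the arrays gave p = 0.0286, which no split of 8 arrays into equal groups can undercut. Its partner Hspe1 (HSP10) spanned 11.04 to 11.48 in Fgf10+/- normoxia and 10.95 to 11.28 in wild-type normoxia, and these groups overlapped.

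Hspa5 (BiP, the HSP70 of the ER) was at 12.99, 13.69, 13.93 and 13.99 in Fgf10+/- normoxia, against 12.77, 12.76, 12.78 and 13.68 in wild-type normoxia. The difference was 0.65 ± 0.22 (limma adjusted p = 0.211), and 0.88 without wild-type replicate 4 (limma adjusted p = 0.0387). Hsp90b1 (GRP94, the HSP90 of the ER) was at 12.91, 13.24, 13.39 and 13.48 in Fgf10+/- normoxia, against 12.64, 12.78, 12.65 and 13.34 in wild-type normoxia. Dnajc3, an ER J protein that holds back the kinase PERK, spanned 9.63 to 10.26 in Fgf10+/- normoxia and 9.07 to 9.81 in wild-type normoxia. Dnajb9 (ERdj4), a J protein of BiP, spanned 8.04 to 9.16 in Fgf10+/- normoxia and 8.28 to 9.04 in wild-type normoxia, a difference of 0.24 that was 0.41 without wild-type replicate 4 and 0.48 without Fgf10+/- replicate 1, with no call. Wild-type replicate 4 was the highest wild-type array for each of these ER genes.

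Between the genotypes in normoxia no member passed, in a comparison that called 0.719% of all tested genes (limma, adjusted p under 0.05). At an unadjusted p under 0.05 limma gave 16 members, against 12.9% of all genes. Of these, 13 were higher in Fgf10+/- pups, against 5.28% of all genes, and 3 were lower, against 7.57%. All 12 inducible members had a higher mean in Fgf10+/- normoxia, with a median log2 difference of 0.40, and 44 of all 74 members did, against 49.5% of all genes. The median over the members was 0.07 and over all genes -0.00. Groups did not overlap for 4 members that were higher, against 3.02% of all genes, and for 1 that was lower, against 4.52%. The 4 were Hspd1, Dnaja2, Dnajb11 and Dnajc9, and the lower one was Dnajc5b. Dnaja2 and Dnajb11 have 2 features each, of which 1 was higher. Dnajc5b was dim, with a mean of 4.13, below the array median of 4.50. The count depended on either of 2 arrays. Without wild-type replicate 4, limma called Hsph1, Hspa5, Hspd1 (0.51) and Hsp90b1 (0.57) higher and Cirbp (-1.47) lower. These were 5 members in all, against 1.45% of all genes. Without Fgf10+/- replicate 1 limma called Hsph1 and Chordc1 (0.90), against 0.763% of all genes.

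The skeletal muscle level that set wild-type normoxia replicate 4 apart was not shared by the other arrays with high chaperones. Fgf10+/- normoxia replicates 2, 3 and 4 had skeletal muscle list means of 4.77, 4.89 and 4.88, within the range of the remaining arrays. For wild-type replicate 4 itself, the part of the muscle and fat signal in its chaperone values was not tested. Of the 5 lung epithelial markers, 3 passed as lower in Fgf10+/- normoxia (list mean 13.88, against 14.27 in wild-type normoxia). Fgf10+/- replicate 1, with low chaperones, had 13.95 and replicates 2 to 4 had 13.85 to 13.86. Wild-type replicate 4, with high chaperones, had 14.18 and wild-type replicates 1 to 3 had 14.26 to 14.33. The part of these markers in the chaperone values was not tested. In homogenates, fewer cells of a type and less RNA per cell cannot be told apart.

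Cirbp, the cold-inducible RNA-binding protein, ran the other way. It was at 11.35, 10.22, 9.97 and 9.75 in Fgf10+/- normoxia, against 11.91, 11.78, 11.69 and 10.17 in wild-type normoxia. The arrays with low Cirbp were those with high Hsph1, and the difference of -1.07 ± 0.37 did not pass (limma adjusted p = 0.222). In hyperoxia Cirbp was at 10.43, 10.83, 10.75 and 10.43 in Fgf10+/- pups, against 11.43, 10.86, 11.33 and 11.15 in wild-type pups. Every Fgf10+/- hyperoxia array was below every wild-type hyperoxia array, by a difference of -0.58 ± 0.37 (exact two-sided permutation p = 0.0286, not adjusted; limma adjusted p = 0.702). Rbm3, the second cold-induced gene, was at 13.01, 12.78, 12.63 and 12.53 in Fgf10+/- normoxia, against 12.82, 12.76, 12.87 and 12.54 in wild-type normoxia. Its genotype difference was -0.02 ± 0.12, and the lowest array of each genotype was replicate 4.

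**Figure D3:**
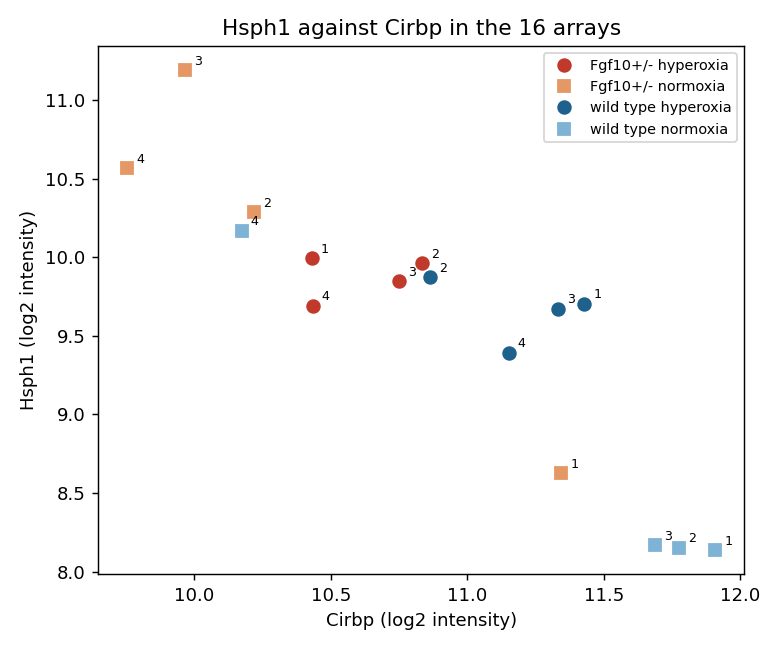
Hsph1 against Cirbp, both as log2 intensity, in each of the 16 arrays by group. Fgf10+/- normoxia replicates 2 to 4 and wild-type normoxia replicate 4 lie at high Hsph1 and low Cirbp, and the hyperoxia arrays lie at Hsph1 between 9.39 and 9.99.

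Relations between members were computed for 7 pairs on deviations from the own group's mean, over 16 arrays, with permutation within groups and Benjamini-Hochberg adjustment over the pairs. The pairs were chosen with earlier results of these data known, so the p-values describe these data and are no independent evidence. Cirbp and Rbm3 varied together, with Pearson r = 0.88 (permutation p = 0.00014, adjusted 0.00098) and Spearman rho = 0.84 (permutation p = 0.00031, adjusted 0.00217). Their r was 0.90 without the 2 arrays farthest from the median of Cirbp, 0.93 within normoxia and 0.95 within hyperoxia. It was 0.12 when the features of each gene were averaged, which takes in a dim feature of Rbm3 (mean 5.06). Cirbp and Hsph1 were opposed, with r = -0.91 (permutation p = 0.0214, adjusted 0.0299) and rho = -0.89 (permutation p = 0.00737, adjusted 0.0172). This r was -0.96 within normoxia but -0.08 within hyperoxia. It was -0.19 without the 2 farthest arrays, wild-type normoxia replicate 4 and Fgf10+/- normoxia replicate 1, with group means taken over the arrays kept. The relation of Cirbp and Hsph1 therefore rests on those 2 arrays, each of which lay with the other set than the rest of its group.

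Hsph1 and Dnajb1 gave r = 0.93 (permutation p = 0.0152, adjusted 0.0266) and rho = 0.74 (permutation p = 0.0259, adjusted 0.0362), with 0.99 within normoxia and -0.28 within hyperoxia. It was 0.48 without the same 2 arrays, so this relation rests largely on them as well. Hspa5 and Hsp90b1 gave r = 0.94 (permutation p = 0.00341, adjusted 0.00796) and rho = 0.81 (permutation p = 0.0104, adjusted 0.0182), with 0.97 within normoxia and 0.48 within hyperoxia. Hspd1 and Hspe1 gave r = 0.78 (permutation p = 0.00152, adjusted 0.00532) and rho = 0.70 (permutation p = 0.00542, adjusted 0.0172), with 0.88 within normoxia and 0.53 within hyperoxia. The part of promoter elements in these relations was not tested. Without the 2 farthest arrays r was 0.62 for Hspa5 and Hsp90b1 and 0.57 for Hspd1 and Hspe1. Among all members the deviations most like those of Hsph1 were, by Pearson r over the 16 arrays, those of Chordc1 (0.95), Hspa5 (0.94), Dnaja1 (0.93), Dnajb1 (0.93) and Hspa1a (0.90).

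The brightest feature of Hspa8, the constitutive HSP70, did not take part. It had a mean of 14.64 and gave r = 0.11 with Hsph1 (permutation p = 0.878, adjusted 0.88; rho = 0.01, permutation p = 0.975, adjusted 0.998) and r = -0.13 with Cirbp (permutation p = 0.88, adjusted 0.88; rho = -0.00, permutation p = 0.998, adjusted 0.998). The other 2 features of Hspa8, with means of 13.86 and 11.23, gave r = 0.93 and 0.83 with Hsph1. The values of Hspa8 thus depend on the feature used, and whether the brightest one is near saturation was not tested. Hspa4, an HSP110-type protein, split in the same way: its brightest feature (mean 10.82) gave r = -0.73 with Hsph1, and its dimmer ones (8.57 and 7.45) gave 0.69 and 0.74. A dim feature of Rbm3 (mean 5.06) gave r = -0.46 with Cirbp, while the others (12.54 and 11.54) gave 0.88 and 0.67. These r over 16 arrays are descriptions. Among the 22 members with several features, Dnajb6 had 1 feature called higher and 1 called lower in hyperoxia in Fgf10+/- pups, so its call is uncertain, and no other member had opposite calls in any comparison.

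**Figure D4:**
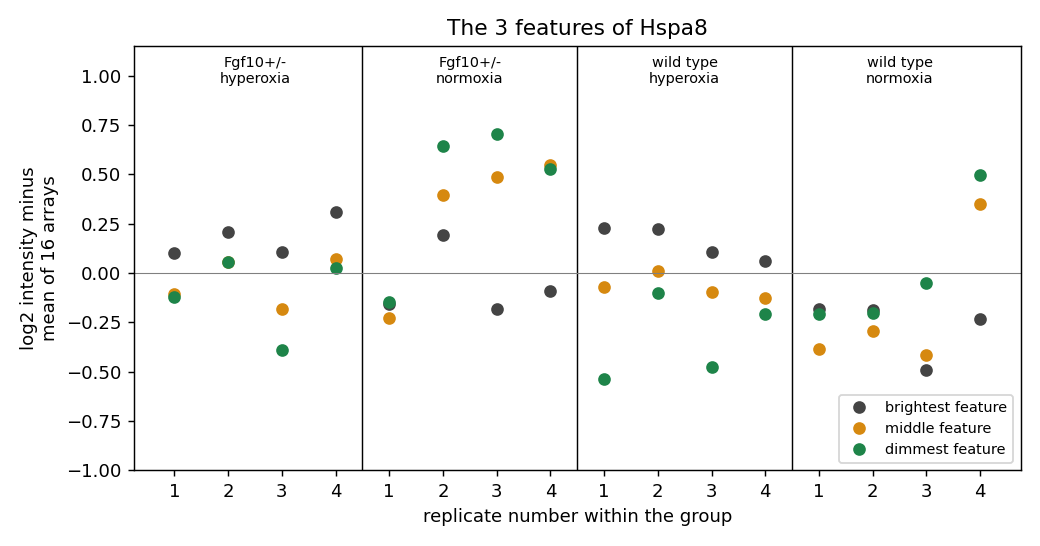
The 3 features of Hspa8 in the 16 arrays, each as log2 intensity minus its mean over the arrays. The features with means of 13.86 and 11.23 are high in Fgf10+/- normoxia replicates 2 to 4 and wild-type normoxia replicate 4, and the brightest feature is not.

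Hyperoxia changed more members than genotype did. In Fgf10+/- pups 13 of 74 members rose and 10 fell, against 13% and 10.7% of all tested genes. In wild-type pups 14 rose and 6 fell, against 10.3% and 8.74% of all genes (limma adjusted p under 0.05 throughout). The member shares of 17.6% and 13.5% in Fgf10+/- pups and 18.9% and 8.11% in wild-type pups were near or moderately above these backgrounds. The median member moved by 0.01 in Fgf10+/- pups and 0.16 in wild-type pups, against 0.03 over all genes in each. In either direction 23 members passed in Fgf10+/- pups and 20 in wild-type pups, against 23.7% and 19.1% of all genes. Of the named members refitted with each array left out, Hspa4l, Hspa9, Hspb2, Hspa13, Dnajc8 and Dnajc9 passed in both genotypes whichever single array was left out. Several calls near the threshold were lost in 5 or 6 of the 8 such fits, namely Hspa2, Hspa14 and Dnajc15 in Fgf10+/- pups and Hspb8, Hsf1, Rbm3, Dnajc16, Dnajb14 and Dnaja2 in wild-type pups. Rbm3 and Hspb6 lost theirs in 4 of 8 in Fgf10+/- pups. The counts moved as well: without Fgf10+/- hyperoxia replicate 1 the Fgf10+/- count was 15, against 20.0% of all genes. Without wild-type hyperoxia replicate 2, wild-type hyperoxia replicate 3 or wild-type normoxia replicate 2 the wild-type count was 12, 12 or 11. Each of these wild-type counts stood against 15.3% of all genes.

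**Figure D5:**
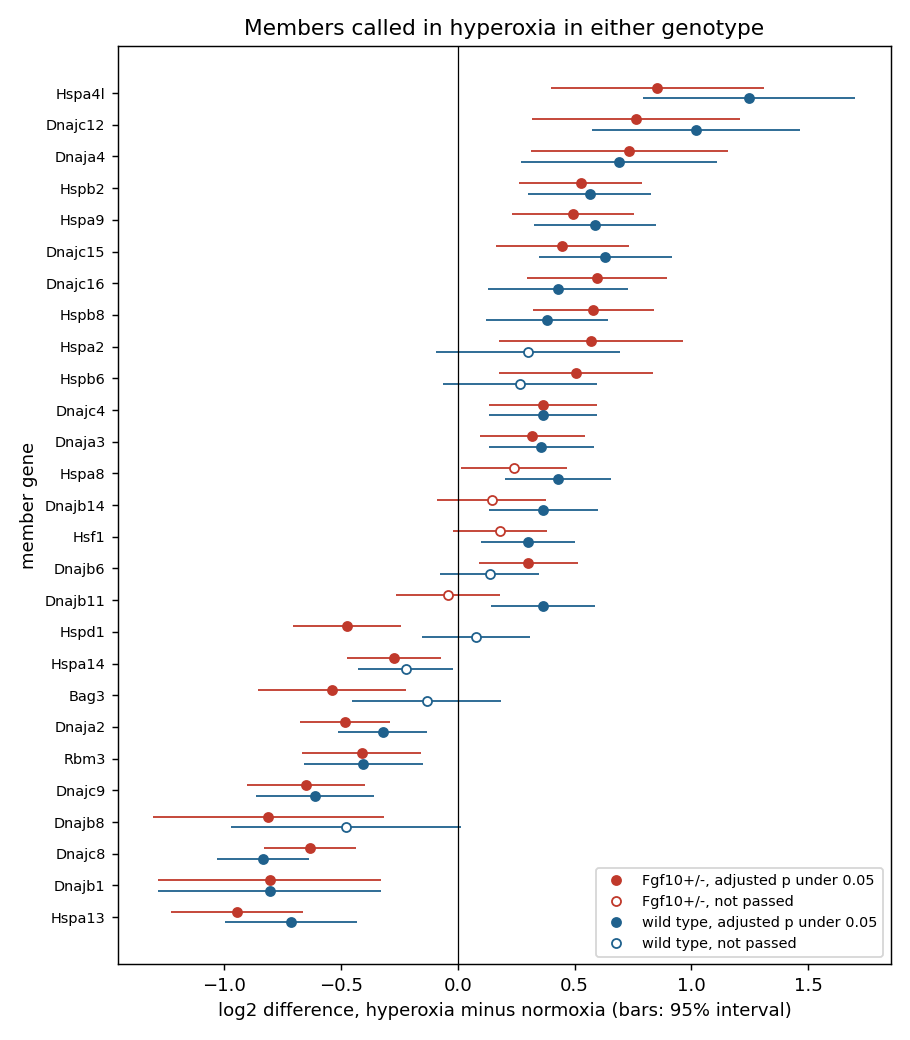
Log2 difference, hyperoxia minus normoxia, with its 95% interval for each member that passed in either genotype. Filled points passed at an adjusted p under 0.05 in limma and open points did not. Hspa4l and Dnajc12 lie farthest to the right and Hspa13 and Dnajc8 far to the left in both genotypes.

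Among the cytosolic HSP70 and HSP110 genes, Hspa4l, an HSP110-type exchange factor, rose most. It was at 9.16, 9.22, 9.21 and 9.21 in Fgf10+/- hyperoxia, against 7.62, 8.42, 8.94 and 8.41 in Fgf10+/- normoxia. It was at 9.24, 9.59, 9.21 and 9.35 in wild-type hyperoxia, against 8.16, 7.79, 8.05 and 8.40 in wild-type normoxia. In each genotype all hyperoxia arrays lay above all normoxia arrays, with rises of 0.85 ± 0.21 in Fgf10+/- pups (1.81-fold, limma adjusted p = 0.00917) and 1.25 ± 0.21 in wild-type pups (2.37-fold, limma adjusted p = 0.000985). Hspa2, an HSP70 best known from testis, rose in Fgf10+/- pups (0.57, limma adjusted p = 0.0361) and differed by 0.30 in wild-type pups (limma adjusted p = 0.302). The brightest feature of Hspa8 rose in wild-type pups (0.43, limma adjusted p = 0.0106), while its dimmer features differed by 0.12 and -0.34 there. Hspa14, a ribosome-associated HSP70 relative, fell in Fgf10+/- pups (-0.27, limma adjusted p = 0.0495).

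Among the stress-inducible members hyperoxia gave no shared rise. Of the 12, none rose and 3 fell in Fgf10+/- pups, and 1 rose and 1 fell in wild-type pups. The one that rose was the brightest feature of the constitutive Hspa8. Dnajb1 fell in both genotypes, by 0.81 ± 0.22 in each, at limma adjusted p = 0.0162 in Fgf10+/- pups and 0.0199 in wild-type pups. It averaged 11.16 ± 0.14 in Fgf10+/- hyperoxia and 10.90 ± 0.11 in wild-type hyperoxia (SD, n = 4 each), and every hyperoxia array lay below every normoxia array of its genotype. Without wild-type normoxia replicate 4 the wild-type fall was 0.58 on the log2 scale and no longer passed (limma adjusted p = 0.051). Bag3 (-0.54, limma adjusted p = 0.0162) and Hspd1 (-0.47, limma adjusted p = 0.00518) fell in Fgf10+/- pups, and differed by -0.13 and 0.08 in wild-type pups (limma adjusted p = 0.605 and 0.688).

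The normoxia sets also moved the hyperoxia comparison of Hsph1. Its hyperoxia arrays were at 9.99, 9.96, 9.85 and 9.69 in Fgf10+/- pups and 9.70, 9.87, 9.67 and 9.39 in wild-type pups, above the low normoxia arrays and below the high ones. The difference was -0.30 ± 0.50 in Fgf10+/- pups (limma adjusted p = 0.734) and 1.00 ± 0.50 in wild-type pups (limma adjusted p = 0.186). Without wild-type normoxia replicate 4 the wild-type difference was 1.51 (limma adjusted p = 0.0252), and Hspa5 (0.78) and Hspb1 (0.73) passed as well. Without Fgf10+/- normoxia replicate 1 the members that newly passed in Fgf10+/- pups were Dnaja1 (-0.87), Dnajb9 (-0.81), Hsp90b1 (-0.53) and Hspa1a (-1.52), all lower in hyperoxia. Members that lost their call without that array were Dnaja3, Dnajb6, Hspa14, Hspa2 and Rbm3, and without wild-type normoxia replicate 4 they were Dnaja2, Dnajb1, Dnajb14, Dnajc16, Dnajc4 and Hspb8.

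Hsf1, the transcription factor of the heat-shock response, rose in wild-type pups (0.30 ± 0.09, limma adjusted p = 0.0381) and differed by 0.18 ± 0.09 in Fgf10+/- pups (limma adjusted p = 0.197). The wild-type call was lost in 5 of the 8 fits that left out 1 array, with differences of 0.23 to 0.35 and limma adjusted p up to 0.112. Neither cytosolic HSP90 passed. Hsp90aa1 differed by -0.06 in Fgf10+/- pups and 0.33 in wild-type pups, and Hsp90ab1 by -0.08 and 0.21 in the same order.

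Several J proteins outside the inducible set passed. Dnajc12, a J protein that assists aromatic amino acid hydroxylases, was at 8.71, 8.67, 9.14 and 8.32 in Fgf10+/- hyperoxia, against 7.72, 8.24, 8.02 and 7.79 in Fgf10+/- normoxia. It was at 9.39, 9.01, 9.31 and 9.07 in wild-type hyperoxia, against 8.43, 7.69, 8.59 and 7.99 in wild-type normoxia. Hyperoxia arrays lay above normoxia arrays in each genotype, with rises of 0.76 ± 0.21 (limma adjusted p = 0.0153) in Fgf10+/- pups and 1.02 ± 0.21 (limma adjusted p = 0.00329) in wild-type pups. Dnaja4, a cytosolic J protein, rose by 0.73 in Fgf10+/- pups and 0.69 in wild-type pups (limma adjusted p = 0.014 and 0.0237). Dnajc16 rose by 0.60 in Fgf10+/- pups and 0.43 in wild-type pups (limma adjusted p = 0.00634 and 0.0454). Dnajb14, an ER membrane J protein, rose in wild-type pups (0.37, limma adjusted p = 0.0288) and differed by 0.14 in Fgf10+/- pups.

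Dnajc8, a J protein found with the splicing machinery, had the smallest p of any member that fell in wild-type pups, and the next after Hspa13 in Fgf10+/- pups. It was at 9.84, 9.84, 9.74 and 9.95 in Fgf10+/- hyperoxia, against 10.62, 10.38, 10.50 and 10.42 in Fgf10+/- normoxia, and at 9.62, 9.61, 9.72 and 9.90 in wild-type hyperoxia, against 10.56, 10.56, 10.63 and 10.43 in wild-type normoxia. The falls were 0.63 and 0.83 on the log2 scale in Fgf10+/- and wild-type pups (limma adjusted p = 0.000227 and 4.66e-05), with no overlap. A second feature of Dnajc8 (mean 9.61) differed by -0.09 in Fgf10+/- pups and -0.17 in wild-type pups and did not pass, and another (mean 8.15) differed by -1.20 and -1.50 and passed.

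Dnaja2, a cytosolic J protein, fell by its brightest feature in both genotypes (-0.48 in Fgf10+/- pups and -0.32 in wild-type pups, limma adjusted p = 0.00134 and 0.021). Of its 2 features tested singly, 2 passed as lower in wild-type pups. In Fgf10+/- pups 1 passed as lower and the other was above 0. Dnajc9, a J protein that chaperones histones, fell by 0.65 in Fgf10+/- pups and 0.61 in wild-type pups (limma adjusted p = 0.00108 and 0.0022). Beside it, 6 of 6 markers of dividing cells fell in each genotype, with list means of 8.20 to 9.03 in Fgf10+/- hyperoxia against 10.41 to 10.53 in Fgf10+/- normoxia, and 7.01 to 7.72 in wild-type hyperoxia against 9.73 to 10.17 in wild-type normoxia. Their part in the fall of Dnajc9 was not tested. Dnajb8, a J protein that holds back aggregation, fell in Fgf10+/- pups (-0.81, limma adjusted p = 0.0189), where it was dim, at 4.84 ± 0.43 in hyperoxia and 5.66 ± 0.26 in normoxia (SD, n = 4 each).

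In the ER, Hspa13, an HSP70 relative of microsomes, fell most. It was at 7.88, 8.06, 7.85 and 8.20 in Fgf10+/- hyperoxia, against 9.05, 8.83, 8.79 and 9.11 in Fgf10+/- normoxia, and at 7.92, 7.99, 7.99 and 7.96 in wild-type hyperoxia, against 8.35, 8.84, 8.58 and 8.95 in wild-type normoxia. No hyperoxia array reached the lowest normoxia array of its genotype, and the differences were -0.94 ± 0.13 in Fgf10+/- pups and -0.72 ± 0.13 in wild-type pups (limma adjusted p = 0.000161 and 0.00168). Dnajb11 (ERdj3), a J protein that hands clients to BiP, rose in wild-type pups (0.37, limma adjusted p = 0.0238) and differed by -0.04 in Fgf10+/- pups (limma adjusted p = 0.827). Of the 9 members on the ER list, which leaves out Dnajb14, none rose and 1 fell in Fgf10+/- pups, and 1 rose and 1 fell in wild-type pups.

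In mitochondria, 4 of 10 members rose in each genotype, 1 fell in Fgf10+/- pups and none fell in wild-type pups. The member that fell was Hspd1. Hspa9 (mortalin, the mitochondrial HSP70) was at 10.41, 10.13, 10.32 and 10.26 in Fgf10+/- hyperoxia, against 10.12, 9.66, 9.77 and 9.61 in Fgf10+/- normoxia, and at 10.51, 10.48, 10.63 and 10.28 in wild-type hyperoxia, against 9.92, 9.86, 10.03 and 9.74 in wild-type normoxia. The groups did not overlap, with rises of 0.49 and 0.59 in Fgf10+/- and wild-type pups (limma adjusted p = 0.009 and 0.00383). Dnajc15, a J protein of the inner membrane import motor, rose by 0.45 and 0.63 in the same order (limma adjusted p = 0.0246 and 0.00413). Dnaja3 and Dnajc4 also rose in both genotypes, by 0.32 to 0.36. The brightest feature of the chaperonin partner Hspe1 differed by -0.06 in Fgf10+/- pups and 0.15 in wild-type pups and did not pass in either. When its 3 features were tested singly, 1 passed as higher in wild-type pups.

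Of the 6 small heat-shock proteins, 3 rose in Fgf10+/- pups and 2 in wild-type pups, and none fell. Hspb2, a muscle-enriched member, rose by 0.53 ± 0.12 in Fgf10+/- pups and 0.56 ± 0.12 in wild-type pups (limma adjusted p = 0.00603 and 0.00488). It was at 9.75, 9.95, 10.02 and 10.04 in Fgf10+/- hyperoxia, against 9.10, 9.43, 9.52 and 9.60 in Fgf10+/- normoxia, and at 9.82, 9.83, 10.06 and 9.71 in wild-type hyperoxia, against 9.44, 9.12, 9.31 and 9.29 in wild-type normoxia. Hyperoxia and normoxia arrays did not overlap in either genotype. Hspb8, the partner of Bag3, rose by 0.58 and 0.38 in Fgf10+/- and wild-type pups (limma adjusted p = 0.00308 and 0.0413), and Hspb6 (HSP20), abundant in smooth and heart muscle, by 0.51 in Fgf10+/- pups (limma adjusted p = 0.0272). Hspb1 differed by 0.20 in Fgf10+/- pups and 0.54 in wild-type pups without passing. Beside these muscle-enriched members, 2 of 5 smooth muscle markers rose in Fgf10+/- pups, and 1 rose and 1 fell in wild-type pups, with list means of 11.29 to 11.68 in Fgf10+/- hyperoxia against 11.19 to 11.22 in Fgf10+/- normoxia, and 11.08 to 11.21 in wild-type hyperoxia against 10.96 to 11.17 in wild-type normoxia. Of 6 heart muscle markers 1 rose in Fgf10+/- pups and 1 fell in wild-type pups, and the part of either list in the small heat-shock values was not tested.

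Rbm3, by its brightest feature, fell in both genotypes in hyperoxia. Of its 3 features tested singly, 1 passed as lower in each genotype, and 1 was above 0 in Fgf10+/- pups. It was at 12.26, 12.47, 12.40 and 12.16 in Fgf10+/- hyperoxia and 12.43, 12.20, 12.45 and 12.31 in wild-type hyperoxia, below every normoxia array of the same genotype. The differences were -0.41 ± 0.12 and -0.40 ± 0.12 in Fgf10+/- and wild-type pups (limma adjusted p = 0.0206 and 0.0274). Cirbp did not pass in either genotype, with a difference of 0.29 ± 0.37 in Fgf10+/- pups and -0.19 ± 0.37 in wild-type pups (limma adjusted p = 0.645 and 0.789).

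Between the genotypes in hyperoxia no member passed, in a comparison that called 0.411% of all genes (limma). At an unadjusted p under 0.05 limma gave 6 members, against 9.01% of all genes. Dnajb13, a J protein of the axoneme of motile cilia, had the smallest p. It was at 4.67, 4.67, 5.30 and 5.20 in Fgf10+/- hyperoxia, against 5.64, 5.99, 5.70 and 5.55 in wild-type hyperoxia, a difference of -0.76 ± 0.25 without overlap (limma adjusted p = 0.313). Beside it, the 6 ciliated cell markers averaged 8.34 to 8.91 in Fgf10+/- hyperoxia and 8.78 to 9.21 in wild-type hyperoxia, 0 of 6 passed between the genotypes, and 5 and 4 of 6 rose with hyperoxia in Fgf10+/- and wild-type pups. Their part in the values of Dnajb13 was not tested. Hspa12b, an HSP70 relative of endothelium, differed by 0.36 ± 0.12 (limma adjusted p = 0.353), Dnajc7, a J protein that binds HSP70 and HSP90, by -0.52 (limma adjusted p = 0.461), and Dnajb8 by -0.51 (limma adjusted p = 0.523). Groups did not overlap for 2 members that were lower, Cirbp and Dnajb13, against 2.85% of all genes, and for 2 that were higher, Chordc1 and Dnajc9, against 3.13%.

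No member and 0% of all genes passed the test of whether the response to hyperoxia differed between genotypes (limma), so calls in 1 genotype alone are not shown to differ from the other. At an unadjusted p under 0.05 limma gave 5 members, against 6.62% of all genes, with 1 above 0, against 3.9%, and 4 below 0, against 2.72%. Hspd1 had the smallest p, with a difference of responses of -0.55 and a 95% interval of -0.88 to -0.23 (limma adjusted p = 0.588). The others were Dnajb11 (-0.41), Hsp90b1 (-0.55), Hspa5 (-0.73) and the dim Dnajc5b (0.90). The 12 inducible members all had differences below 0, with a median of -0.39. Of all 74 members 24 were above 0, against 51.7% of all genes. The responses share their normoxia arrays with the genotype comparison in normoxia, where the same 12 all lay above 0.

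Other genes of the same pathways, not members, were counted from lists by function. Over all tested genes in hyperoxia, 13% rose and 10.7% fell in Fgf10+/- pups, and 10.3% rose and 8.74% fell in wild-type pups. Of 15 cochaperones and heat-shock response genes, 2 rose and 2 fell in Fgf10+/- pups in hyperoxia, and 4 rose and none fell in wild-type pups. Hspbp1, an HSP70 exchange factor, rose by 0.59 and 0.88 in Fgf10+/- and wild-type pups (limma adjusted p = 0.00155 and 0.000134), and Bag1, another, by 0.56 and 0.48 (limma adjusted p = 0.000483 and 0.00201). Fkbp4 (0.76) and Ptges3 (0.55), HSP90 cochaperones, rose in wild-type pups. Stip1, which links HSP70 to HSP90, fell in Fgf10+/- pups (-0.99, limma adjusted p = 0.00225), and so did the collagen chaperone Serpinh1 (-0.36, limma adjusted p = 0.0278). Of 8 subunits of TRiC, the cytosolic chaperonin, 4 fell in Fgf10+/- pups and 3 in wild-type pups, and none rose, with Cct5 at -0.33 and -0.34. Of 13 ER stress genes, 1 rose and 3 fell in Fgf10+/- pups and none passed in wild-type pups. The 3 were the disulfide isomerases Pdia3 (-0.92), Pdia4 (-0.62) and Pdia6 (-0.47). In normoxia 11 of these 13 were higher in Fgf10+/- pups, against 49.5% of all genes, with a median of 0.32 and no call. Their list mean was 10.24, 10.64, 11.01 and 10.78 in Fgf10+/- normoxia replicates 1 to 4. In wild-type normoxia replicates 1 to 4 it was 10.16, 10.20, 10.20 and 10.66.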

How the data were processed

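The authors deposited 1 table of log2 intensities for 16 single-colour arrays. Per the labels' protocols, a miRNeasy kit gave the total RNA, and a QuickAmp kit for a single colour amplified it and added Cy3. Background correction and normalization were not given in the sources used here. All array medians were 4.50, so the log2 values were used as deposited. Scan, slide and litter are unknown too. Nothing says that replicates of a group came from separate litters, so p-values measure the spread between these arrays. Their number, 4 per group, limits the precision.

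Features were named from the platform annotation, updated through RefSeq accessions (29050 features), current symbols (2061) or unique synonyms (349), with 5 names kept. The other 31511 features name no gene and were not used. Features had to exceed the array's 25th percentile on 4 or more of the 16 arrays, and the brightest such feature stood for the gene. Hspa1b has no feature by symbol. limma 3.58.1 in R 4.3.3 fitted 1 mean per group over all 16 arrays, with Benjamini-Hochberg adjustment over 20174 genes and calls under 0.05. Missing values numbered 33 in the table and 0 in the members. On simulated data for Fgf10+/- against wild type in normoxia (20167 genes, 200 changed) limma called 17% of the changes of 1.5-fold and 57% of those of 2-fold. Permutation tests used SciPy 1.17.1, exact for single genes and with 100000 resamples for relations, two-sided.

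The members, lists and pairs were chosen with earlier results of these data known. Named genes were core members by role, the 10 called members with the largest rise and fall per comparison, and the 5 with the smallest p where fewer than 5 passed. Dnajb6, Dnaja3, Dnajc4, Hspa4 and the pathway genes named by value were chosen after their values were seen. Arrays with the same replicate number did not deviate together (residual correlations of -0.03 to 0.09), so no pairing was assumed. Alternatives were other filters, feature choices, scalings, limma settings, a replicate block, a minimum fold of 1.5, fits of only the groups compared, and leaving out each array.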

Additional observations from a re-analysis of the deposited data

Results flagged for a closer look

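Single arrays stood far from the other 3 of their group for 13 of the 164 combinations of named gene and group examined. Chance flags about 5% of groups, and the genes are not independent of each other. Of the 13, 8 were in wild-type normoxia replicate 4, whose skeletal muscle and brown fat markers also stood apart. In that array Hsph1 was at 10.17, against 8.14 to 8.17 in the other 3. Hspa5 was at 13.68, against 12.76 to 12.78, and Hspb1 at 13.01, against 12.23 to 12.28. Dnajb1 was at 12.39 (others 11.43 to 11.56), Dnaja1 at 13.51 (12.55 to 12.69), Hsp90ab1 at 14.31 (13.81 to 13.90) and Hspd1 at 11.59 (11.29 to 11.31). Cirbp was at 10.17, below the others at 11.69 to 11.91.

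The other 5 were spread over arrays. Wild-type hyperoxia replicate 3 had Dnaja2 at 9.91 (others 9.60 to 9.62), replicate 4 had Hspa12b at 9.63 (9.26 to 9.31), and replicate 2 had Hspd1 at 11.56 (11.41 to 11.43). Fgf10+/- hyperoxia replicate 1 had Hspa4l at 9.16 (9.21 to 9.22). Wild-type normoxia replicate 3 had the brightest Hspa8 feature at 14.15 (14.40 to 14.45). No member passed the test of a different hyperoxia response between genotypes.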

How the results depend on the processing

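No single-gene value changed direction among those called. Over the alternatives, 2438 gene values kept their side of the threshold, 95 lost it and 32 gained it. In normoxia, Fgf10+/- against wild type gave 1 member instead of 0 under some settings, in each case Hspd1. These were the 50th-percentile filter, limma's trend and robust settings, and array weights, calling 1.87%, 2.15% and 1.52% of all genes. The count of 23 called in hyperoxia in Fgf10+/- pups became 15 when only the groups compared were fitted, against 17.4% of all genes. It became 9 with at least 1.5-fold, against 14.1%. The wild-type count of 20 became 12 and 9 in the same order, against 16.5% and 10.6%. Leaving out 1 array gave 0 to 5 members for genotype in normoxia and 0 to 0 for genotype in hyperoxia. It gave 15 to 22 for hyperoxia in Fgf10+/- pups, 11 to 17 in wild-type pups and 0 to 0 for the interaction. Shares of all genes in that order were 0.218% to 1.45%, 0.0644% to 0.397%, 19.8% to 22.8%, 15.3% to 17.3% and 0% to 0.00496%. With a replicate block the 5 counts were 0, 0, 21, 19 and 0, against 0.808%, 0.183%, 23.9%, 18.7% and 0% of all genes. The replicate block moved r to 0.81 for Cirbp and Rbm3 and to 0.89 for Hspa5 and Hsp90b1. Averaging a gene's features moved r to 0.12 for Cirbp and Rbm3, -0.88 for Cirbp and Hspa8, 0.87 for Hsph1 and Hspa8, and 0.54 for Hspd1 and Hspe1. Leaving out 1 array, r ranged from 0.82 to 0.91 for Cirbp and Rbm3, -0.22 to 0.02 for Cirbp and Hspa8, -0.94 to -0.83 for Cirbp and Hsph1, 0.86 to 0.96 for Hsph1 and Dnajb1, -0.08 to 0.30 for Hsph1 and Hspa8, 0.70 to 0.83 for Hspd1 and Hspe1, and 0.87 to 0.96 for Hspa5 and Hsp90b1. Apart from the settings built from fewer arrays or a stricter threshold, the cause was not tested. Signal over background was not in the files used, and 8 tested members had a mean below the array median of 4.50.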
